A study of Homo sapiens with 8 samples.

Results

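The neutrophil-attracting CXC chemokines CXCL1, CXCL2, CXCL3, CXCL5 and CXCL8 were examined in Reh, an established human precursor B cell line of acute lymphoblastic leukaemia. They were taken as every probe set of the array (a group of short probes read out as 1 value) that the platform annotation assigns to exactly 1 of these 5 gene symbols. This gave 5 of 19775 measured genes and 10 of 54675 probe sets on the array: 1 for CXCL1, 3 for CXCL2, 1 for CXCL3, 3 for CXCL5 and 2 for CXCL8. No probe set was shared between 1 of these genes and another symbol. Expression was measured on Affymetrix U133 Plus 2.0 arrays in 4 groups of 2 arrays each. The mock group carried control constructs, the second group carried IRF5-4D, a constitutively active form of the transcription factor IRF5, and the third carried IKKβ(EE), a constitutively active form of the kinase IKKβ. The fourth group carried IRF5-4D and IKKβ(EE) together and is called the combination. The 2 arrays of a group, numbered 1 and 3 by the submitters, are described as biological duplicates. The time from transfection to harvest and the share of cells that took up a construct were not stated. A value may therefore be an average over transfected and untransfected cells. A change in few cells could then not be told apart from a smaller change in many.

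These chemokines are small secreted proteins that share a Glu-Leu-Arg motif before their first cysteines and draw neutrophils out of the blood. They act through the receptor CXCR2, and CXCL8 (interleukin-8) also acts through CXCR1. In monocytes, endothelium and epithelium their genes are classic targets of NF-κB: IKKβ marks the inhibitors of NF-κB for destruction, and the freed dimers bind κB sites close to the start of transcription. CXCL8 is also induced through AP-1 and C/EBP factors bound beside its κB site. IRF5 is an interferon regulatory factor that drives inflammatory cytokine genes downstream of Toll-like receptors.

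The 5 genes lie in 1 cluster on chromosome 4, and the sequence just upstream of each is shown because the same κB letters stand in all of them while only CXCL8 of the 5 read above the array median. The sequences are from RefSeq (GRCh38.p14), 140 bases each, 5′ to 3′ on the strand of the gene and ending 1 base before the annotated start. Capitals mark the 9 bases GGAATTTCC, the core of a κB site, and in CXCL8 also the AP-1 motif TGANTCA, matched as TGACTCA. The stretches are chr4:73740429-73740568 (plus strand) for CXCL8, chr4:73869253-73869392 (plus strand) for CXCL1, chr4:74099196-74099335 (minus strand) for CXCL2, chr4:74038690-74038829 (minus strand) for CXCL3 and chr4:73998678-73998817 (minus strand) for CXCL5.
CXCL8: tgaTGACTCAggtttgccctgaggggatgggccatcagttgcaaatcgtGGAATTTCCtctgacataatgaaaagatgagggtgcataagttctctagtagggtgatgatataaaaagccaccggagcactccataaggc
CXCL1: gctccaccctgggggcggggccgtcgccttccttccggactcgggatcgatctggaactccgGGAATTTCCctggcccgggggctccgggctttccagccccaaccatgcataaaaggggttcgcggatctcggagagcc
CXCL2: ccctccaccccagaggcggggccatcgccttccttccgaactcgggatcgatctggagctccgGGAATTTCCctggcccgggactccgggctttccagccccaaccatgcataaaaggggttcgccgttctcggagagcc
CXCL3: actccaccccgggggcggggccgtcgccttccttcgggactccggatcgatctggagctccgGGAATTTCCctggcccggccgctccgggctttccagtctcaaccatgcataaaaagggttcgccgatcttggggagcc
CXCL5: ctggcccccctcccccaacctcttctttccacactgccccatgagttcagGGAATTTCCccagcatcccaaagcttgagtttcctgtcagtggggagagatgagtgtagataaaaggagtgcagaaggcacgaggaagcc
The motif GGAATTTCC, searched on both strands in the 250 bases upstream of each start, stood in 5 of the 5 genes and in 145 of 35116 promoters in all (0.413%). It began 91 bases upstream of CXCL8, 78 upstream of CXCL1, 77 upstream of CXCL2, 78 upstream of CXCL3 and 90 upstream of CXCL5. In CXCL1, CXCL2, CXCL3 and CXCL5 it was preceded by a further G, and that longer motif stood in 50 of all promoters (0.142%) and was not found in the CXCL8 window. The general κB consensus was likewise found in 4 of the 5 windows, CXCL8 being the exception, and in 5.21% of all promoters. The AP-1 motif TGANTCA was found in 1 of the 5, CXCL8, beginning 137 bases upstream, and in 6.57% of all promoters. The TATA box letters TATAAA stood 31 bases upstream of CXCL8 and in 10.7% of all promoters, and at the same place CXCL1, CXCL2 and CXCL3 had CATAAA, which stood in 9.64%. The interferon-stimulated response element, searched as GAAA, any 2 bases and GAAA, was found in 0 of the 5 windows and in 3.02% of all promoters. A match of letters is a description of the sequence and does not show that a factor was bound.

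The deposited values were log2 expression values, with array medians between 5.10 and 5.14 and lower quartiles between 3.67 and 3.73. Duplicate arrays had correlations of 0.994 to 0.996 over all probe sets, and the small number of arrays limits the precision. Levels of different probe sets are not on 1 scale and are not compared with each other, except by their place among all probe sets of an array. Of the 3 IKBKB probe sets, 211027_s_at read 4.43 ± 0.52 (SD, n = 2) in mock cells and was 7.35 (SE 0.59, limma adjusted p = 0.0012) higher with IKKβ(EE) and 5.79 (SE 0.59, adjusted p = 0.00103) higher in the combination. No IRF5 probe set passed with IRF5-4D alone, and 205469_s_at was 0.92 (SE 0.13, adjusted p = 0.00648) higher in the combination, but no source used here says whether these probes lie in the transfected sequence, so they do not check the label. The cells read as precursor B cells: 6 of 7 measured markers lay above the array median in every group, with group means of the terminal transferase gene DNTT between 14.0 and 14.2, while the surrogate light chain gene VPREB1 lay between 4.13 and 4.35, under that median. Of 9 neutrophil and myeloid markers 7 lay under the array median on all arrays, among them CD14, LYZ, S100A8 and FCGR3B. CSF1R, at 5.49 to 6.15 over the arrays, lay above it, and MPO, at 4.86 to 5.94, lay on both sides.

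CXCL8 was the member with a response. On probe set 202859_x_at the arrays numbered 1 and 3 read 9.39 and 7.93 in mock cells, 8.37 and 8.05 with IRF5-4D, 11.2 and 10.7 with IKKβ(EE), and 7.56 and 7.30 in the combination. Both IKKβ(EE) arrays lay above every other array, and both combination arrays lay below every other array. On 211506_s_at they read 7.54 and 6.12 in mock cells, 6.63 and 6.20 with IRF5-4D, 9.57 and 9.02 with IKKβ(EE), and 5.71 and 5.51 in the combination. The 8 arrays stood in the same order on this probe set, which reads the same transcript and is not an independent measurement. The share of all probe sets with both IKKβ(EE) arrays highest and both combination arrays lowest was not counted. Separate arrays were common for single pairs of groups: 15.1% of all probe sets had IKKβ(EE) above mock, and 25.7% had the combination below mock. Within the arrays, 202859_x_at lay at the 95.3 and 96.9 percentile of all probe sets with IKKβ(EE) and at the 73.2 and 75.4 percentile in the combination. The array numbered 1 read higher than that numbered 3 in each of the 4 groups, by 1.46 in mock cells and by 0.26 to 0.49 in the other groups on 202859_x_at. The mock duplicates were thus the widest apart, and every comparison with mock carries that gap. As the spread is pooled over the 4 groups, the gap also enters the SE of the comparisons without mock.

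**Figure D1:**
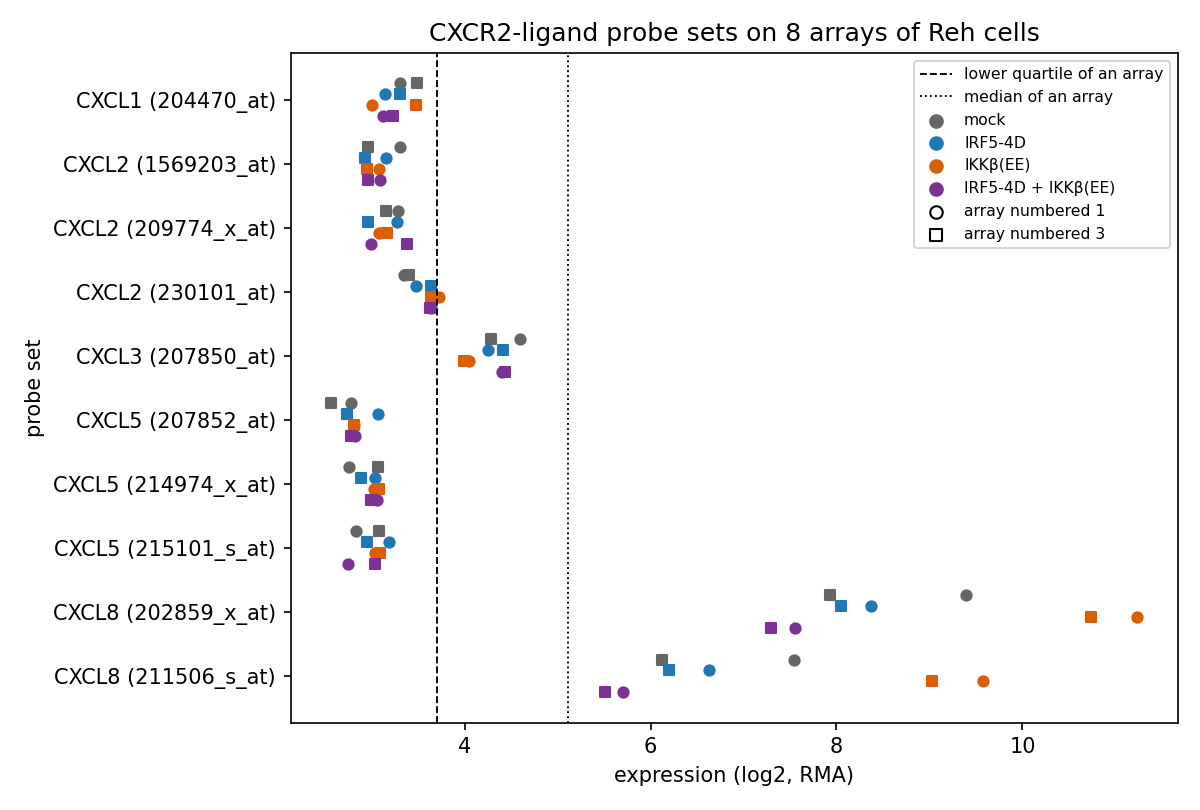
Expression (log2, RMA) of the 10 probe sets on each of the 8 arrays, coloured by transfection, with circles for arrays numbered 1 and squares for arrays numbered 3; points of a probe set are offset vertically by group. The dashed and dotted lines mark the lower quartile and the median of an array: the 8 probe sets of CXCL1, CXCL2, CXCL3 and CXCL5 stay between 2.56 and 4.60, below the median, while the 2 of CXCL8 span 5.51 to 11.2.

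With IKKβ(EE) alone, CXCL8 stood about 5 times higher than in mock cells. The mean on 211506_s_at rose to 9.30 ± 0.39 from 6.83 ± 1.0 (SD, n = 2), which is 2.47 (SE 0.39, 95% interval 1.60 to 3.33) on the log2 scale or 5.53-fold (limma adjusted p = 0.042). On 202859_x_at the difference was 2.33 (SE 0.39, 95% interval 1.46 to 3.20) or 5.02-fold, from 8.66 ± 1.03 to 11.0 ± 0.35, and narrowly missed the threshold of 0.05 (adjusted p = 0.0529). The arrays of the groups were separate on both probe sets, as was the case in this direction for 15.1% of all probe sets. Within the arrays numbered 1 the differences were 1.84 and 2.03, and within those numbered 3 they were 2.81 and 2.90. Of the 10 members 1 was called higher and 0 lower, beside 0.302% of all 54613 probe sets tested called, each of them higher. Among all probe sets the 2 of CXCL8 ranked 37 and 42 by the size of this rise. The call on 211506_s_at was kept without mock replicate 1 (3.18, adjusted p = 0.00461) and was lost in the 7 other fits that left out 1 array. Without mock replicate 3 the difference was 1.76 (adjusted p = 0.061). Leaving out IKKβ(EE) replicate 1 gave 2.19 (adjusted p = 0.459), and leaving out IKKβ(EE) replicate 3 gave 2.74 (adjusted p = 0.129). The difference stayed at 2.47 when an IRF5-4D array (adjusted p = 0.109) or a combination array (adjusted p = 0.0643) was dropped. A fit of mock and IKKβ(EE) alone, with fewer arrays behind the spread, also lost it (adjusted p = 0.178). On 202859_x_at the call was made without mock replicate 1 (3.06, adjusted p = 0.00333) and in none of the other 7 such fits.

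With both constructs CXCL8 was far lower than with IKKβ(EE) alone. In the combination it was 3.56 (SE 0.39, 95% interval 2.69 to 4.43 in size) lower on 202859_x_at, which is 11.8-fold (7.43 ± 0.18 against 11.0 ± 0.35, SD, n = 2, limma adjusted p = 0.00236). On 211506_s_at it was 3.69 (SE 0.39) lower, or 12.9-fold (5.61 ± 0.14 against 9.30 ± 0.39, adjusted p = 0.00188). These were the 2 largest falls among all 54613 probe sets in this comparison. Of the 10 members 2 were called lower and 0 higher, beside 0.275% of all probe sets called lower and 0.837% called higher. The fall was 3.68 and 3.86 within the arrays numbered 1 and 3.44 and 3.51 within those numbered 3. Leaving out any 1 of the 8 arrays kept the call on both probe sets, with adjusted p values up to 0.0368.

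The other comparisons place the combination at or below the level of cells without IKKβ(EE). CXCL8 in the combination differed from mock by -1.23 (SE 0.39, adjusted p = 0.176) on 202859_x_at and -1.22 (SE 0.39, adjusted p = 0.18) on 211506_s_at in limma. Neither passed, although the arrays of the groups did not overlap, as was the case in this direction for 25.7% of all probe sets. Without mock replicate 3 the values were -1.96 and -1.93, and both passed (adjusted p = 0.00783 and 0.0125). Without mock replicate 1 they shrank to -0.50 and -0.51 (adjusted p = 0.43 and 0.466), so the distance from mock rests on which mock array is kept. A replicate block, which matches arrays by their number, also made both pass in limma (adjusted p = 0.0313 and 0.0272). The sample titles share the numbers 1 and 3 across the 4 groups but do not say what they mark, so a pairing stays possible. Of the 10 members 0 were called in this comparison, beside 2.09% of all probe sets. An unadjusted p under 0.05 was found for 2, those of CXCL8, beside 14.3% of all probe sets. Against IRF5-4D alone the combination read -0.78 (SE 0.39, adjusted p = 0.487) and -0.81 (SE 0.39, adjusted p = 0.465) in limma. There 0 of 10 members were called, beside 0.842% of all probe sets, and 0 had an unadjusted p under 0.05, beside 11.8%.

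IRF5-4D alone left CXCL8 within the range of the mock arrays. The differences from mock were -0.45 (SE 0.39, 95% interval -1.32 to 0.42) on 202859_x_at and -0.42 (SE 0.39, 95% interval -1.28 to 0.45) on 211506_s_at, and neither passed in limma (adjusted p = 0.959 and 0.962). Without mock replicate 1 their sign turned, to 0.28 and 0.30. Of the 10 members 0 were called, beside 0.194% of all probe sets, and 0 had an unadjusted p under 0.05, beside 5.39%. The single constructs differed from each other: with IKKβ(EE) CXCL8 was 2.78 (SE 0.39, adjusted p = 0.0162) and 2.88 (SE 0.39, adjusted p = 0.0138) higher than with IRF5-4D, or 6.87-fold and 7.37-fold. These 2 of 10 members were called higher beside 0.271% of all probe sets. The call was lost on both without IRF5-4D replicate 1 (2.94 and 3.10), IRF5-4D replicate 3 (2.62 and 2.66), IKKβ(EE) replicate 1 (2.53 and 2.61) or IKKβ(EE) replicate 3 (3.03 and 3.15), with adjusted p from 0.0638 to 0.202 in limma.

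The interaction is the effect of IKKβ(EE) in the presence of IRF5-4D minus its effect in the absence of IRF5-4D, on the log2 scale. For CXCL8 it was -3.11 (SE 0.55, 95% interval -4.33 to -1.88) on 202859_x_at and -3.27 (SE 0.55, 95% interval -4.50 to -2.04) on 211506_s_at. With limma adjusted p values of 0.146 and 0.128 neither passed over all probe sets, of which 34 (0.0623%) did. Of the 10 members 0 were called. An unadjusted p under 0.05 was found for 3, those of CXCL8 and CXCL3 207850_at, beside 6.48% of all probe sets. Without mock replicate 1 the values were -3.84 and -3.98, and both passed (adjusted p = 0.0124), and without mock replicate 3 they were -2.38 and -2.56 (adjusted p = 0.0619 and 0.0638). In 7 of the 8 fits that omit an array neither passed, with adjusted p up to 0.485 and 0.44. The replicate block made both pass (adjusted p = 0.0109 and 0.00729).

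The IKBKB probe set that responded is given beside CXCL8. The IKKβ(EE) arrays read 12.6 and 11.0 on IKBKB 211027_s_at and the combination arrays 11.1 and 9.33, a difference of -1.56 (SE 0.59, limma adjusted p = 0.375). The array of the combination numbered 1 and the IKKβ(EE) array numbered 3 were near each other in IKBKB, at 11.1 and 11.0. On the same arrays CXCL8 202859_x_at read 7.56 and 10.7. These are single arrays picked after their values were seen, and the part of the construct level in the fall of CXCL8 was not tested. ICAM1, an adhesion molecule that is also a target of NF-κB, had means of 9.68 ± 0.14 (SD, n = 2) with IKKβ(EE) and 9.65 ± 0.30 with both constructs, which differ by -0.03 (SE 0.34, adjusted p = 0.992). Summed over the 9 neutrophil and myeloid markers, the level was 7.56 to 7.69 with IKKβ(EE), where CXCL8 was highest, 7.57 to 7.77 in the combination and 7.84 to 7.91 in mock cells. Of 5 T and NK cell markers 1, NKG7, a protein of cytotoxic granules, rose in the combination by 1.34 (SE 0.18, adjusted p = 0.00609), and the summed level of these markers was 7.08 to 7.29 there and 6.73 to 6.87 in the other groups. CD3D, CD3E, CD2 and CD8A lay under the array median on all arrays, and the part of such cells in the results was not tested. Of the 6 stromal, epithelial and endothelial markers 0 passed in limma in any of the 7 contrasts. Per contrast 0 to 2 of them had an unadjusted p under 0.05, beside 5.39% to 14.3% of all probe sets.

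**Figure D2:**
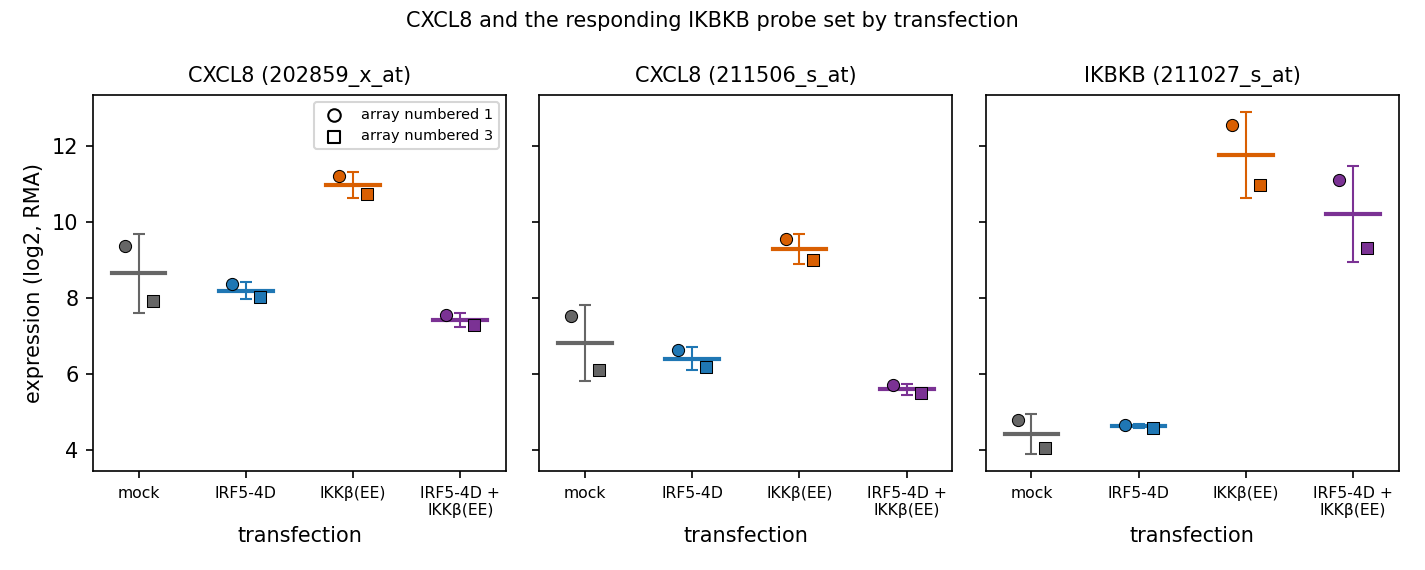
Expression (log2, RMA) of both CXCL8 probe sets and of the IKBKB probe set that responded, by transfection, with circles and squares for arrays numbered 1 and 3, a bar for the mean and an error bar for the SD of 2 arrays. CXCL8 is highest with IKKβ(EE), at 11.0 and 9.30 on average, and lowest in the combination, at 7.43 and 5.61, while IKBKB is high in both groups.

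The other 4 genes stayed low in every group. Their 8 probe sets lay between 2.56 and 4.60 on all arrays, between the 0.164 and 42.2 percentile of an array, and none reached the array median. Whether such levels exceed background was not measured here, and the values cannot tell a silent gene from one expressed very weakly. In each of the 7 contrasts 0 of these 8 probe sets passed in limma, and their differences ran from -0.43 to 0.30 with IKKβ(EE) and from -0.22 to 0.26 in the combination against mock. Over these 8 the 95% intervals reached at most 0.56 with IKKβ(EE) and 0.52 in the combination, which bounds a rise of the measured signal but not of a transcript hidden under background.

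CXCL1, the chemokine first described as a melanoma growth factor, read 3.30 and 3.49 in mock cells, 3.15 and 3.31 with IRF5-4D, 3.0 and 3.47 with IKKβ(EE), and 3.12 and 3.23 in the combination. The groups overlapped except for the combination, which lay just below mock, by 0.22 (SE 0.17, limma adjusted p = 0.618). In this direction 25.7% of all probe sets had combination arrays separate from mock. Its paralogue CXCL2 has 3 probe sets, which ran from 2.93 to 3.31, from 2.97 to 3.38 and from 3.35 to 3.73. On the last, 230101_at, the arrays read 3.35 and 3.41 in mock cells, 3.48 and 3.64 with IRF5-4D, 3.73 and 3.64 with IKKβ(EE), and 3.64 and 3.63 in the combination. All 6 arrays with a construct lay above both mock arrays, by at most 0.30 (SE 0.12) on average. For IKKβ(EE) against mock limma gave an unadjusted p of 0.0281 and an adjusted p of 0.697. In this comparison alone 15.1% of all probe sets had arrays separate in this direction. The other CXCL2 probe sets read -0.11 and -0.10 in that comparison, so the 3 did not share a direction.

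CXCL3, the closest relative of CXCL2, read 4.60 and 4.29 in mock cells, 4.26 and 4.41 with IRF5-4D, 4.04 and 3.99 with IKKβ(EE), and 4.40 and 4.44 in the combination. Both IKKβ(EE) arrays lay below all the others, the opposite side from CXCL8. The share of all probe sets with such an order was not counted. The difference from mock was -0.43 (SE 0.13, unadjusted p = 0.0109), and the combination read 0.40 (SE 0.13, unadjusted p = 0.0153) above IKKβ(EE) alone, and neither passed in limma (adjusted p = 0.545 and 0.293). Without mock replicate 1 the difference from mock was -0.27 (adjusted p = 0.846), and without mock replicate 3 it was -0.58 (adjusted p = 0.256). It was also the 1 probe set of the 8 with an unadjusted p under 0.05 in the comparison of IKKβ(EE) with IRF5-4D and in the interaction. Of the 8 probe sets 2 had an unadjusted p under 0.05 with IKKβ(EE), this one and CXCL2 230101_at, which lie on opposite sides of 0, beside 6.58% of all probe sets at that level. CXCL5, known from epithelium and platelets, read 2.56 to 3.18 over its 3 probe sets, between the 0.164 and 12.3 percentile of an array, and each of its groups lay within 0.23 of mock on average.

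**Figure D3:**
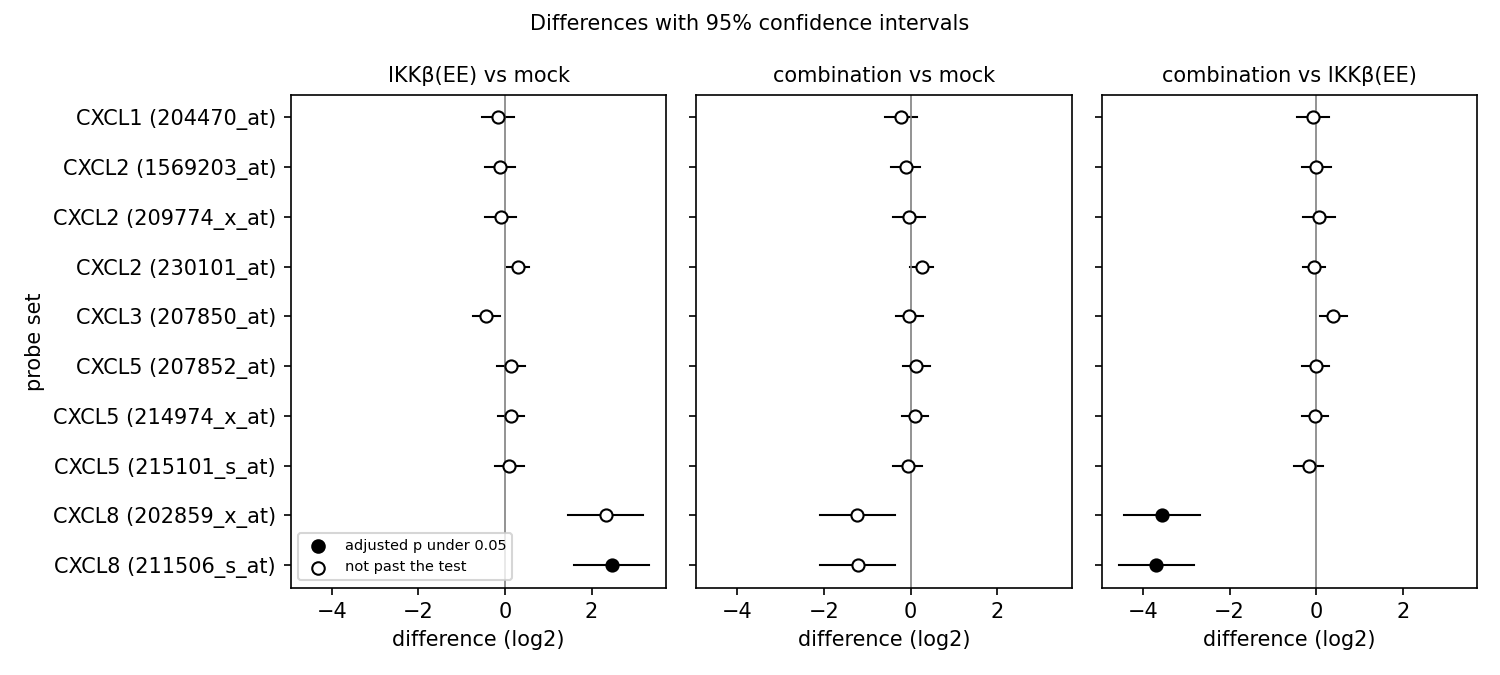
Log2 differences with 95% confidence intervals for the 10 probe sets in 3 comparisons, filled where the adjusted p was under 0.05. The 8 probe sets of CXCL1, CXCL2, CXCL3 and CXCL5 lie within 0.43 of 0 in these comparisons, whereas CXCL8 lies at 2.33 and 2.47 with IKKβ(EE) against mock and at -3.56 and -3.69 in the combination against IKKβ(EE).

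Within the cluster no other gene than CXCL8 was called in the comparisons with mock or between the combination and IKKβ(EE). RefSeq lists 9 protein-coding genes from CXCL8 to CXCL2 in the order CXCL8, CXCL6, PF4V1, CXCL1, PF4, PPBP, CXCL5, CXCL3, CXCL2, with RASSF6 before and MTHFD2L after them. CXCL6 and PPBP are the 2 further ligands of CXCR2. With IKKβ(EE) CXCL6 read -0.13, PF4V1 -0.07, PF4 -0.25 and PPBP 0.10, and none passed. RASSF6 and MTHFD2L, the neighbours outside the cluster, read 0.12 and -0.08. In the combination against mock MTHFD2L read -0.61 (adjusted p = 0.362) and RASSF6 -0.05 (adjusted p = 0.92), and neither passed. The 1 probe set per gene used here was the one with the highest mean over all arrays. For CXCL8 this was 202859_x_at, which passed between the combination and IKKβ(EE) but not against mock. The call of CXCL8 against mock, with IKKβ(EE), was on 211506_s_at.

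**Figure D4:**
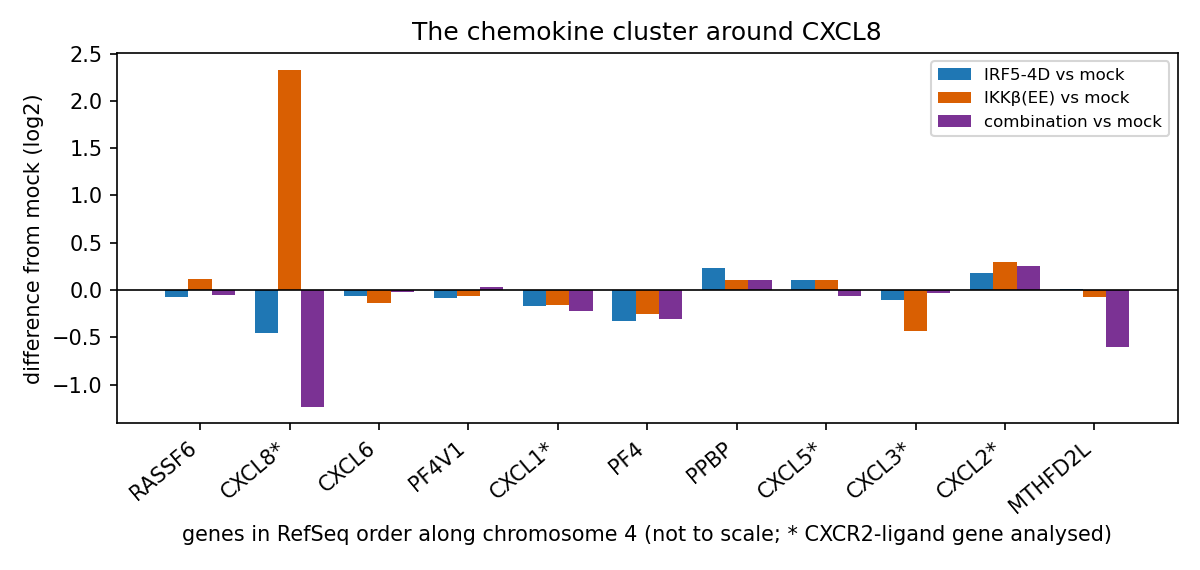
Log2 difference from mock in the 3 transfected groups for the genes around CXCL8, in RefSeq order along chromosome 4 and not to scale, 1 probe set per gene, with no error bars. CXCL8, on 202859_x_at, stands at 2.33 with IKKβ(EE) and -1.23 in the combination, neither past the adjusted threshold. The 8 genes from CXCL6 to CXCL2 lie between -0.43 and 0.30 in every comparison shown.

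The receptors of these ligands and the scavenger ACKR1, which binds them without signalling, were not called. Of 5 genes of the CXCR2 system (CXCL6, PPBP, CXCR1, CXCR2 and ACKR1) 0 passed in any of the 7 contrasts. With IKKβ(EE) 0.425% of all 19775 genes were called higher. Per contrast 0 to 2 of the 5 had an unadjusted p under 0.05, beside 5.39% to 14.3% of all probe sets. CXCR2 read 4.26 ± 0.12 (SD, n = 2) with IKKβ(EE) against 3.62 ± 0.14 in mock cells, or 0.64 (SE 0.15, limma adjusted p = 0.238) higher. ACKR1 read 5.17 ± 0.36 in the combination and 4.38 ± 0.23 in mock cells, a difference of 0.79 (SE 0.20, adjusted p = 0.0903).

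Of 10 other CXC ligands measured, 3 rose in the combination against mock and 0 fell, beside 2.38% of all genes called higher and 0.359% called lower. The 3 were the CXCR3 ligands CXCL11, by 6.41 (SE 0.45), CXCL10, by 3.72 (SE 0.39), and CXCL9, by 2.80 (SE 0.22). CXCL11 and CXCL9 were also higher in the combination than with IKKβ(EE) alone, by 4.98 and 2.71, the comparison in which CXCL8 fell, and 2 of 10 rose there and 0 fell, beside 1.19% and 0.303% of all genes. With IRF5-4D alone 1 of the 10, CXCL11, rose, by 3.72 (SE 0.45, limma adjusted p = 0.0121), beside 0.288% of all genes, and this call was lost without mock replicate 1, mock replicate 3 or IRF5-4D replicate 1 (2.93 to 4.51 over the 8 fits). The calls of the combination against mock and against IKKβ(EE) held in 8 of 8 such fits. With IKKβ(EE) alone 0 of the 10 passed in limma and 2 had an unadjusted p under 0.05, beside 6.58% of all probe sets. The median difference of the 10 in the combination against mock was 0.05, beside -0.03 over all genes.

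Genes that make or call in neutrophils beside the chemokines were looked at as a list. Of 13 measured factors 1, ICAM1, rose with IKKβ(EE), by 2.51 (SE 0.34, limma adjusted p = 0.0189), beside 0.425% of all genes. This call was lost without IKKβ(EE) replicate 1 or replicate 3 (adjusted p up to 0.24). In the combination 3 rose, beside 2.38% of all genes: ICAM1 by 2.47 (SE 0.34), the cytokine LIF by 2.14 (SE 0.28) and interleukin-1β (IL1B) by 1.03 (SE 0.18), and LIF was also 2.26 (SE 0.28) higher there than with IKKβ(EE). With 1 array left out in turn, ICAM1 and LIF kept the call against mock in 8 of 8 fits, IL1B in 4, and LIF against IKKβ(EE) in 6. The granulocyte growth factor CSF3 lay between 5.86 and 6.02 in all groups on average. In the combination against mock 7 of the 13 had an unadjusted p under 0.05 in limma, beside 14.3% of all probe sets. The list median was 0.41 there, beside -0.03 over all genes. With IKKβ(EE) 3 of the 13 had such a p, beside 6.58%, and the list median was 0.00, beside -0.02. Of 12 measured NF-κB subunits and feedback genes 1, NFKB1, rose with IKKβ(EE), by 0.91 (SE 0.13, adjusted p = 0.0302), beside 0.425% of all genes, and the list had a median of 0.76 beside -0.02 over all genes. The call of NFKB1 held in 2 of the 8 fits that omit an array, those without a combination array. In the combination 4 rose, beside 2.38% of all genes: the adaptor TRAF1 by 3.74, NFKBIZ, a nuclear IκB protein that assists transcription of inflammatory genes, by 2.80, NFKB1 by 1.24 and the A20-binding protein TNIP1 by 1.01. Between the combination and IKKβ(EE) 1 of the 12, TRAF1, rose, by 2.34 (SE 0.30), and 0 fell, beside 1.19% and 0.303% of all genes. Against mock TRAF1, NFKBIZ and NFKB1 kept the call in 8 of 8 such fits and TNIP1 in 1, and TRAF1 against IKKβ(EE) kept it in 7. With IRF5-4D alone NFKBIZ rose, by 1.88 (SE 0.28, adjusted p = 0.0427), beside 0.288% of all genes, and kept the call in 4 of 8 fits.

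Regulators of the stability of cytokine messages and the factors that share the CXCL8 promoter were looked at in the same way. Of 7 measured stability regulators 0 passed in limma with IKKβ(EE) against mock, where 0 had an unadjusted p under 0.05 beside 6.58% of all probe sets, or between the combination and IKKβ(EE), where 1 had beside 10.2%. In the combination against mock RC3H1 (Roquin-1), which promotes decay of such messages, fell by 0.66 (SE 0.12, limma adjusted p = 0.0242), as 1 of the 7 beside 0.359% of all genes called lower. Of 10 AP-1 and C/EBP factors 0 passed with IKKβ(EE) and 1 had an unadjusted p under 0.05 (beside the same 6.58%), JUNB, at 0.78 (SE 0.20, adjusted p = 0.315). Between the combination and IKKβ(EE) FOS rose, by 2.13 (SE 0.41, adjusted p = 0.0461), and against mock JUNB rose, by 0.97 (SE 0.20, adjusted p = 0.0408), each 1 of the 10 beside 1.19% and 2.38% of all genes. With 1 array left out in turn, RC3H1 kept its call in 4 of 8 fits, and FOS and JUNB in 1 each.

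The other genes with GGAATTTCC within 250 bases upstream, 73 of them measured, were set beside the members. With IRF5-4D alone 2 of these 73 rose (2.74%), CXCL11 and NFKBIZ, beside 0.273% of 15379 measured genes with a promoter entry. With IKKβ(EE) 3 of the 73 rose (4.11%), beside 0.384% of 15379 measured genes with a promoter entry: ICAM1, NFKB1 and TNFRSF9 (4-1BB), a receptor of the TNF family, by 2.01. In the combination 8 rose (11.0%) and 0 fell, beside 2.35% and 0.403%, and these were CXCL10, CXCL11, ICAM1, IL18RAP, NFKB1, NFKBIZ, OPTN and TNFRSF9. Between the combination and IKKβ(EE) 2 of the 73 rose (2.74%), CXCL11 and IL18RAP, and 0 fell, beside 1.19% and 0.293% of the 15379. At so low a share, 0 falls among 73 genes do not set them apart from all genes. CXCL8 fell there. Over the 73 the median difference from mock was 0.02 for IKKβ(EE) and 0.05 for the combination, beside -0.02 and -0.03 over all.

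The genes most like CXCL8 were sought among 19770 others by the root mean square difference over the 8 arrays, each gene taken relative to its own mock mean. The 5 nearest were the antisense transcript EDNRB-AS1 (0.79), AFTPH-DT (0.83), the surface proteoglycan SDC2 (0.83), the orphan nuclear receptor NR4A3 (0.84) and the kinase MAK (0.90). With IKKβ(EE) their means lay above mock by 1.44, 1.91, 1.86, 1.67 and 0.93. In the combination they lay at -0.29, 0.08, 0.22, 0.16 and -0.43 from mock. These 5 thus shared the height with IKKβ(EE) alone and the return toward mock, and none lay as far below mock in the combination as CXCL8, at -1.23. They were chosen for this likeness, and no test is given.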

How the data were processed

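Expression was measured in 8 samples of Reh cells, 2 in each of 4 groups taken from the sample labels. The authors deposited log2 values, 1 per probe set and array, made with RMA per the submitters' processing notes. RMA subtracts background, quantile-normalizes arrays and summarises probes, which compresses differences near background. For RMA neither a version nor a chip definition was stated.

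The 62 control probe sets were left out. A model of 4 group means was fitted to 54613 probe sets with limma 3.58.1 (R 4.3.3, lmFit and eBayes, 4 residual and 5.28 prior degrees of freedom), with Benjamini-Hochberg adjustment over all of them and a threshold of 0.05. Symbols came from the platform annotation of the array, and the symbols of all 10 members matched RefSeq by gene identifier. For other genes the probe set with the highest mean stood for the gene. BCL3, BIRC3, CSF2 and ZC3H12A were not analysed here. Probe sets ending in _x_at may bind related transcripts. The 7 contrasts were adjusted separately. Comparisons against mock share the mock arrays. Members, lists and tests were chosen with earlier results of these data known. The procedure was tested on simulated data. Up to 4 called genes of a list, or 2 as values, are named by size of change. The promoter, cluster and motif descriptions were added after the values were seen. Alternatives were 1 probe set per gene, a filter on level, median centring, another quantile normalization, a variance trend, a replicate block, a fit of only the groups compared, and leaving out each array. P values weigh a difference against the spread between these arrays, pooled over the 4 groups and moderated by that of all probe sets.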

Additional observations from a re-analysis of the deposited data

Results flagged for a closer look

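CXCL8 was singled out because every array moved one way with IKKβ(EE) in the absence of IRF5-4D and the opposite way in its presence. Without IRF5-4D both IKKβ(EE) arrays lay above both mock arrays, and with IRF5-4D both combination arrays lay below both IRF5-4D arrays. The first of these held for 15.1% of all probe sets, and the share for the second is not given here. This rule was applied to the 10 members only, and the share of all probe sets that meet both parts was not counted. The difference of the 2 effects on the log2 scale was -3.11 on probe set 202859_x_at and -3.27 on 211506_s_at. The difference itself was tested as the interaction, and it did not pass over all probe sets (limma adjusted p = 0.146 and 0.128). Both probe sets read the same transcript and count as 1 observation.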

How the results depend on the processing

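The fall of CXCL8 between IKKβ(EE) and the combination kept its 2 calls in every alternative that tested both probe sets, and 1 probe set per gene left 1 of 1. The number of members called changed elsewhere. For IKKβ(EE) against mock it was 1, and it became 2 with a variance trend or a replicate block, 0 in a fit of only the groups compared, and 0 to 2 with 1 array left out. For the combination against mock it went from 0 to 2 with the replicate block, and lay between 0 and 2 with 1 array left out. For IKKβ(EE) against IRF5-4D it went from 2 to 1 with 1 probe set per gene, which leaves CXCL8 a single probe set, and lay between 0 and 2 with 1 array left out. For the interaction it went from 0 to 2 with the replicate block and lay between 0 and 2 with 1 array left out. Fewer arrays lower the degrees of freedom, and the array left alone is taken to vary as arrays of other groups do. IRF5-4D against mock lay between -1.18 and 0.28 on 202859_x_at and between -1.13 and 0.30 on 211506_s_at with 1 array left out, turning sign without mock replicate 1. The numbers 1 and 3 are not said to mark a shared culture or day. The deviations of the arrays numbered 1 correlated between groups at -0.05 to 0.30, and with 2 numbers this neither shows nor excludes pairing. With the replicate block the CXCL8 interaction kept its values of -3.11 and -3.27 at adjusted p = 0.0109 and 0.00729. Over all probe sets the block called 174 in place of 106 for IRF5-4D, 317 in place of 165 for IKKβ(EE) and 1829 in place of 1139 for the combination, each against mock. It called 953 in place of 460 for the combination against IRF5-4D, 990 in place of 607 against IKKβ(EE), 409 in place of 264 for IKKβ(EE) against IRF5-4D, and 108 in place of 34 for the interaction. With 1 array left out these counts ran, in the same order, from 32 to 135, 35 to 169, 588 to 978, 64 to 465, 202 to 612, 59 to 289 and 7 to 128. With only the groups compared they were 87 for IKKβ(EE) and 523 for the combination against mock, and 253 and 295 for the combination against IRF5-4D and IKKβ(EE). The filter on level left 1 call in the interaction. Of 160 values of list genes under the 5 alternatives that keep all arrays and no block, 156 kept direction and side of the threshold and 4 lost the call, CXCL9 in the interaction and RC3H1 against IRF5-4D in 3 settings. Leaving out each array was added for these genes after the data were seen, and 11 of their 32 calls held in all 8 fits, 21 were lost in at least 1 and 0 values turned sign. A fit of only the groups compared, added likewise, kept 20 of 31. The fits of CXCL1, CXCL2, CXCL3 and CXCL5 are limited by signal near background.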
